A study of Mus musculus with 14 samples.

Results

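The genes described here are 7 genes of the choroid plexus, Ttr, Kl, Clic6, Sostdc1, Aqp1, Ecrg4 and F5, in RNA from the mouse visual cortex. They were selected on their normalized read counts, which were far higher in 2 mice, 20Hz replicates 1 and 2, than in the other 12 mice. All 7 were present among the 12874 genes of the deposited table. The values of those 2 mice therefore chose the genes and are given as a description with no test. The study measured total RNA by sequencing in 14 male mice. All were WT (wild-type) offspring from breeding of 5xFAD, a transgenic line used to model amyloid disease, on a B6SJL background. Of these, 7 were treated at 20Hz and 7 at 40Hz, each for 1 h. In the 20Hz group, replicates 1 to 3 were 5 months old and replicates 4 to 7 were 4 months old. In the 40Hz group, replicates 2 to 5 were 5 months old and replicates 1, 6 and 7 were 4 months old. No untreated mice were analysed here, and the labels used here do not say what form the treatment took or how the cortex was dissected. Replicates 1 and 2 of the 20Hz group carry the animal numbers 141 and 144.

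The choroid plexus is a folded sheet of secretory epithelium over a core of fenestrated capillaries and stroma. It hangs in the ventricles of the brain and makes most of the cerebrospinal fluid. Its epithelial cells move ions and water from blood to fluid and release carrier proteins, binding proteins and growth factor antagonists into it. The visual cortex holds no choroid plexus of its own, and transthyretin is widely used as a marker of this epithelium in brain tissue. Klotho is made by this epithelium and also, at lower levels, by neurons.

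The promoters of those of the 7 genes found in the sequence table are shown as a description. Whether they bear on the joint high level of the genes was not tested. RefSeq promoter windows on assembly GRCm38.p6 were matched by symbol for 4 of the 7 genes, Kl, Aqp1, Ecrg4 and F5. Ttr, Clic6 and Sostdc1 had no window. Each window holds the 250 bases before the start of the gene and is printed 5′ to 3′ on the plus strand, which is the strand of all 4 genes. The windows lie at chr5:150952357-150952606 for Kl, chr6:55336049-55336298 for Aqp1, chr1:43730352-43730601 for Ecrg4 and chr1:164151585-164151834 for F5. Capitals mark the letters GTTGCC, part of the binding site of the RFX factors.
Kl: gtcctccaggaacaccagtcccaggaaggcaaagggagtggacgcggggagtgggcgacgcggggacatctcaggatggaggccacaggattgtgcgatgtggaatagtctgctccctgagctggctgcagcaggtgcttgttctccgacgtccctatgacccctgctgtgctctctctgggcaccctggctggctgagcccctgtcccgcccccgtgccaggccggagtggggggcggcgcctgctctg
Aqp1: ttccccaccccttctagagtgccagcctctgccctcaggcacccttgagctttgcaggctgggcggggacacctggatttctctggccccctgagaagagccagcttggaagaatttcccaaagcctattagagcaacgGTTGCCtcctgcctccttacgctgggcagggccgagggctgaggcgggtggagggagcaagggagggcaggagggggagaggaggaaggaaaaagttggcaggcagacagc
Ecrg4: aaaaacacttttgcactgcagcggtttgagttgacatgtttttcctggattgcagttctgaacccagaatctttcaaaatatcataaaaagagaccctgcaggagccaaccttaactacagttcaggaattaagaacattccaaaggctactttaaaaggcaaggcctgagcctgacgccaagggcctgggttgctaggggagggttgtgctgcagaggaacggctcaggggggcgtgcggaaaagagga
F5: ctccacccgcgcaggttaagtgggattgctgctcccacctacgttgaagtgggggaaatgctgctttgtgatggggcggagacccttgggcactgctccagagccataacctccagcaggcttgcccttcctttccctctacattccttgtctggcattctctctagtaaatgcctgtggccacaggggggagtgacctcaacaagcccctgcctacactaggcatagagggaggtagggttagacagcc
Of the 5 motifs searched on both strands, 1 was found in 1 window. GTTGCC lies in the Aqp1 window, and 10.4% of the 32851 windows of that length in the table hold it. The letters TAATCC (an OTX-type homeodomain core, in 6.25% of windows), GTAAACA (a forkhead core, in 3.17%), TATAAA (12.4%) and CCAAT (33.8%) were in none of the 4 windows. None of the 5 motifs contains another. The G and C content was 66.8% for Kl, 62.0% for Aqp1, 57.2% for F5 and 48.4% for Ecrg4, against a median of 52.4% over all windows. The 4 windows therefore had no searched motif in common.

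Read totals over the listed genes ran from 6108717 to 13744933 per mouse (median 9755336), and the pair of high mice had 8984973 and 11035135, inside the range of the other 12. As a check of the labelled region, 10 cortical neuron genes summed to 50484 normalized counts in the first and 48990 in the second of the high pair. Both sums lay within the 44838 to 56209 of the other 12 mice. No 2 mice of a group agreed within sampling noise, and each was counted as 1 animal. Normalized counts are reads scaled to the depth of each library. The 7 genes together took 4789 reads in 20Hz replicate 1 and 34565 in replicate 2, which is 0.0533% and 0.313% of all reads. In the other 12 mice they took 235 to 640 reads, or 0.0033% to 0.0054%. All 7 lay above the other 12 mice in both high mice, as did 184 of the 12874 genes of the table, or 1.43%. The rule used that contrast, so the count of 7 is a description. In RNA from bulk tissue, more cells of a type and more RNA per cell cannot be told apart.

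Ttr encodes transthyretin, the carrier of thyroid hormone and retinol that the choroid plexus secretes into the cerebrospinal fluid. Its normalized count was 2037 in 20Hz replicate 1 and 13256 in 20Hz replicate 2. The other 12 mice had 9.08 to 55.0, with a median of 23.8. The high pair stood 85.6-fold and 557-fold above that median, the widest separation of the 7 genes. Even 20Hz replicate 1, the lower of the pair, was 37.0-fold above the highest of the other mice, 40Hz replicate 7. These levels rest on 1725 and 14318 reads in the pair and on 6 to 59 reads in each of the others.

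**Figure D1:**
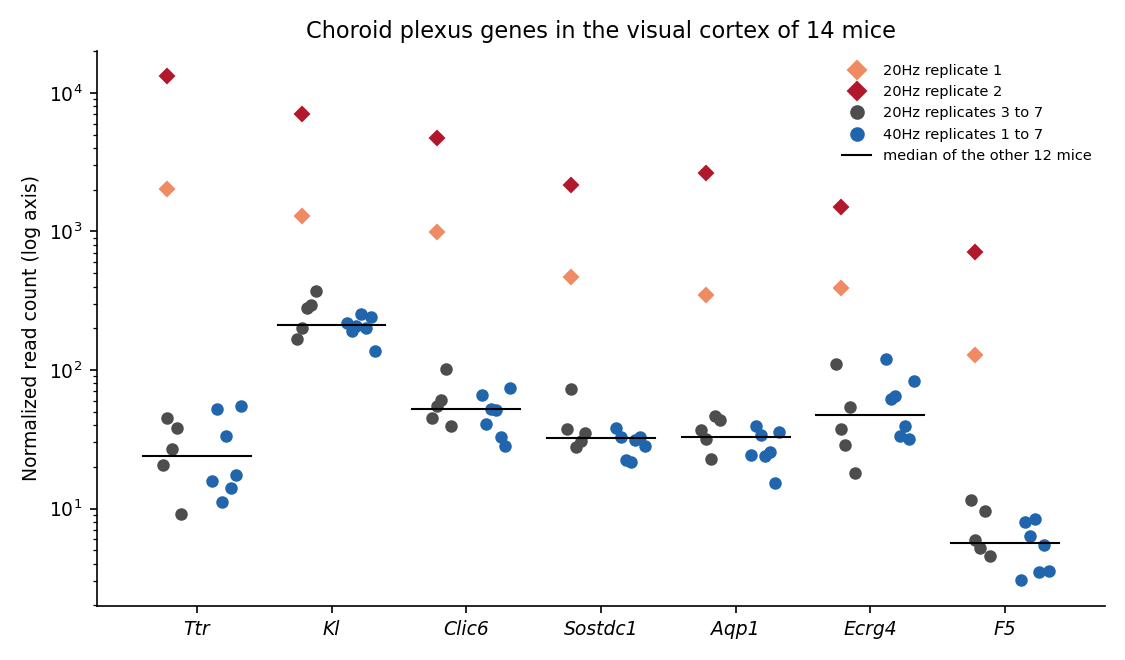
Normalized read count (log axis) of each of the 7 genes in each of the 14 mice, with a point per mouse and a line at the median of the other 12 mice. For every gene 20Hz replicate 2 is highest and 20Hz replicate 1 is next; for Ttr these points sit at 13256 and 2037 over a median of 23.8.

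Aqp1 and Clic6 are genes of fluid and ion handling. Aqp1, the water channel of the apical membrane of the epithelium, had 348 and 2627 normalized counts in 20Hz replicates 1 and 2. The other 12 mice had 15.2 to 46.9 (median 33.0), so the pair stood 10.6-fold and 79.7-fold above the median. Clic6 belongs to the chloride intracellular channel family. It had 998 and 4695 in the pair and 28.3 to 101 (median 51.9) in the rest, 19.2-fold and 90.4-fold above the median. The highest of the other 12 mice was 20Hz replicate 6 and the lowest was 40Hz replicate 6, for Aqp1 and for Clic6 alike. Neither gene overlapped between the pair and the rest: 20Hz replicate 1 was 7.43-fold above the highest other mouse for Aqp1 and 9.86-fold for Clic6.

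Kl, Sostdc1 and Ecrg4 encode signalling proteins. Kl encodes klotho, the co-receptor that lets FGF receptors answer the hormone FGF23, and its shed form circulates in the cerebrospinal fluid. Kl had 1286 and 7046 normalized counts in 20Hz replicates 1 and 2 against 137 to 371 (median 212) in the other 12 mice. Its folds over that median were 6.07, the smallest of the 7 genes in replicate 1, and 33.3. Sostdc1 encodes a secreted antagonist of BMP and Wnt signals. It had 469 and 2160 in the pair and 21.5 to 72.9 (median 32.0) in the rest, or 14.6-fold and 67.4-fold. Ecrg4 encodes augurin, the precursor of secreted peptides. It had 390 and 1502 in the pair against 18.2 to 120 (median 46.9), or 8.30-fold and 32.0-fold. Ecrg4 came closest to overlap: 20Hz replicate 1 was 3.24-fold above the highest other mouse, 40Hz replicate 1, and 20Hz replicate 3 also reached 110. Kl was next, at 3.47-fold above 20Hz replicate 7.

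F5 encodes coagulation factor V, a cofactor of thrombin formation that is made mainly in liver and megakaryocytes. It had 128 and 715 normalized counts in 20Hz replicates 1 and 2, from 108 and 772 reads. The other 12 mice had 3.02 to 11.5 (median 5.66), from 2 to 10 reads each. The folds over the median were 22.5 and 126, second to Ttr in both mice. F5 passed a filter of a mean of 10 normalized counts over all 14 mice through the high pair alone, since its mean over the other 12 was 6.24. The variance of F5 among those 12 mice was 1.01 times what counting error gives, so no difference among them was detectable at this depth. For the other 6 genes that ratio ran from 2.66 (Aqp1) to 18.0 (Ecrg4).

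Levels of different genes can be compared per kilobase of transcript, with 1 annotated transcript length taken for each gene. In 20Hz replicate 2 the order of normalized counts per kilobase was Ttr (11177), Ecrg4 (1665), Kl (1377), Clic6 (1249), Sostdc1 (1213), Aqp1 (1000) and F5 (96.2). In 20Hz replicate 1 it was Ttr (1718), Ecrg4 (432), Clic6 (266), Sostdc1 (263), Kl (251), Aqp1 (133) and F5 (17.2). Ttr thus led and F5 was last in both mice, and single mice give no spread for the neighbours between them. In the other 12 mice the medians per kilobase were 52.0 for Ecrg4, 41.4 for Kl, 20.1 for Ttr, 18.0 for Sostdc1, 13.8 for Clic6, 12.6 for Aqp1 and 0.762 for F5. There Ttr fell from the top of the order to a middle place. Neighbours in that order had overlapping ranges over the 12 mice, except Aqp1 and F5, whose ranges did not overlap.

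The ratio of 20Hz replicate 2 to 20Hz replicate 1 was not the same for every gene. Its median over the 7 genes was 5.48. The largest ratio was that of Aqp1, 7.54 (95% interval 6.69 to 8.53, counting error only), followed by Ttr with 6.51 (6.19 to 6.84). F5 had 5.60 (4.58 to 6.92) and Kl 5.48 (5.14 to 5.84), whose intervals overlapped. Clic6 had 4.70 (4.37 to 5.07), Sostdc1 4.61 (4.14 to 5.14) and Ecrg4 3.85 (3.42 to 4.35). Aqp1 and Ecrg4 at the ends of that order had intervals far apart. These intervals leave out the spread between mice. Among the other 12 mice the variance was 2.66 times counting error for Aqp1 and 18.0 times for Ecrg4. Whether the ratios differ beyond that spread was not tested. Subtracting the median of the other 12 mice from both values kept Aqp1 highest, at 8.22, and Ecrg4 lowest, at 4.24. Set against Ttr in the same mouse, Aqp1 was 17.1% of Ttr in replicate 1 and 19.8% in replicate 2, while Clic6 went from 49.0% to 35.4%, Ecrg4 from 19.1% to 11.3% and Kl from 63.1% to 53.2%.

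**Figure D2:**
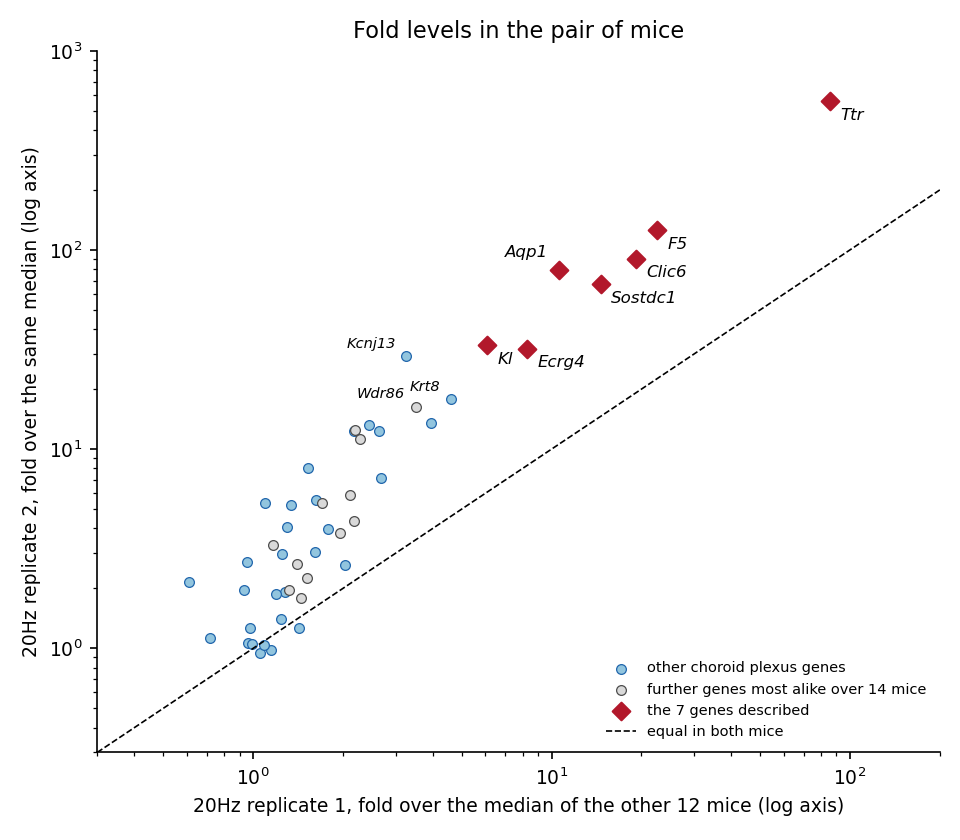
Fold of each gene over the median of the other 12 mice, in 20Hz replicate 1 (x, log axis) and 20Hz replicate 2 (y, log axis); diamonds are the 7 genes, circles the other choroid plexus genes and the genes whose pattern was most alike, and the dashed line marks equal folds. All 7 diamonds lie above the line, from Kl (6.07 and 33.3) to Ttr (85.6 and 557).

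The list of 7 had no stated threshold, and its edge ran through genes of like size. The member with the smallest fold in replicate 1 was Kl, at 6.07. Just outside, Krt8, an epithelial keratin, stood 4.60-fold and 17.8-fold above the median in the pair, and Cox8b, a subunit of cytochrome c oxidase, 3.95-fold and 13.5-fold. Kcnj13, the inward rectifier potassium channel Kir7.1 of the apical membrane of the plexus, stood 3.26-fold and 29.3-fold. Igkc, the constant region of the immunoglobulin kappa chain of plasma cells, was 9.80-fold and 9.90-fold above, on 59 and 76 reads, with 1 other mouse as high as 49.8 normalized counts. Igkc thus had nearly the same level in both high mice, unlike the 7 genes. In all, 11 genes of the table were at least 4-fold above the median and above all other mice in both of the pair. They were the 7 genes, Krt8, Igkc, Rab20, a small GTPase, and Drc7, a subunit of the axonemal dynein regulatory complex. Rab20 and Drc7 rested on 9 reads each in replicate 1, and on 30 and 70 reads in replicate 2. These names outside the 7 were chosen after their values were seen.

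Other genes known from the choroid plexus were listed by role, 47 in all, of which 30 were in the table. Of these 30, 12 were above the other 12 mice in both high mice (1.43% of all genes were), 22 in 20Hz replicate 2 (10.7% of all genes) and 13 in 20Hz replicate 1 (7.77%). Their median fold over the other mice was 1.29 in replicate 1 and 2.83 in replicate 2, against 1.00 and 0.99 over the whole table. By summed normalized counts, the transporters and channels had 80904 and 76180 in the pair against 64275 to 86450 in the rest. Secreted proteins and receptors had 22829 and 24642 against 18044 to 27266, so both of these sums lay inside the range of the rest. The junction, cytoskeleton, enzyme and transcription factor genes had 3287 and 5283 against 2144 to 3072, above it in both mice. Such sums follow the most abundant genes of a list. By gene, 7 of 12 transporters and channels were above the rest in replicate 2 and 4 in replicate 1, with median folds of 1.90 and 1.22. Of the 9 secreted proteins and receptors, 7 were above in replicate 2 and 3 in replicate 1, with median folds of 4.07 and 1.30. These counts and sums come from the same contrast that chose the 7 genes and are a description.

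Among transporters and channels, Kcnj13, Slc31a1 and Abca4 were above the rest in both mice, 3 of 12. Kcnj13 had 302 and 2717 normalized counts against 53.0 to 157 (median 92.7). Its ratio between the pair was 8.99 (7.91 to 10.25), above that of Aqp1, though the counting intervals of those 2 genes overlap. Slc31a1, a copper importer, had 98.0 and 185 against 34.8 to 76.7. Abca4, a retinoid flippase, had 17.7 and 47.2 against 4.26 to 12.4. Slc13a4, a sulfate transporter, was above the rest in replicate 2 with 1631, but its 689 in replicate 1 lay inside the range of 213 to 843. Slc12a2, the sodium, potassium and chloride cotransporter, had 23.6 in replicate 1 and 83.3 in replicate 2, against 23.5 to 53.3. Atp1b1, a sodium pump subunit made throughout the brain, had 68152 and 61521 against 55190 to 74543, inside the range of the rest in both mice.

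Among secreted proteins and receptors, 3 of 9 were above the rest in both mice, Lbp and Col8a1 among them. Lbp, the lipopolysaccharide binding protein, had 104 and 488 normalized counts against 15.7 to 91.5 (median 39.4). Col8a1, a short-chain collagen, had 331 and 1785 against 66.6 to 262. Igfbp2, an insulin-like growth factor binding protein that the epithelium secretes, had 580 in replicate 2, while its 149 in replicate 1 was inside the range of 94.3 to 173. Among junction, cytoskeleton, enzyme and transcription factor genes, 6 of 9 were above the rest in both mice: Ezr, Msx1, Rdh5, Cox8b, Cab39l and Krt8. Ezr, a linker of microvilli to actin, had 2427 and 2729 against 1673 to 2317. Msx1, a homeobox factor, had 313 and 696 against 121 to 266. The tight junction gene Cldn1, also made in the meninges, had 357 in replicate 1, inside the range of 124 to 480, and 1213 in replicate 2. Folr1, Kcne2, Otx2, Enpp2, Prlr and Cldn2, further genes of this epithelium, were also on the lists, and their single values are not reported here. Listed genes that were missing from the deposited table entered no count or sum.

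Over all 14 mice, the 20 other genes whose pattern was most like the mean of the 7 (each gene standardized over the mice, Pearson r 0.84 to 0.94) included 8 of the choroid plexus lists: Kcnj13, Col8a1, Igfbp2, Krt8, Rdh5, Cox8b, Msx1 and Abca4. The 3 lists had 10, 9 and 9 genes among the 10689 genes with a mean of at least 10 normalized counts over all 14 mice. Krt8 and Abca4 passed that filter through the high pair alone, with medians of 4.88 and 6.60 in the other 12 mice. All these r values are set by the same pair of mice, and 18 of the 20 genes were above the rest in both. Wdr86 (r 0.92) had 43.7 and 204 normalized counts against a median of 12.5. Trpm3 (r 0.91), a cation channel gene whose intron holds miR-204, had 89.8 and 442 against 31.8 to 58.9. Sod3 (r 0.92), the extracellular superoxide dismutase, had 607 and 900 against 345 to 518. Spag16 (r 0.87), a gene of the motile cilium, had 33.1 and 187 against 6.05 to 23.1. The others were Pcolce2, F11r, Tuba1c, Strip2, Loxl1, St6galnac2, Shisa2 and Sh3bgr. All 20 were higher in replicate 2 than in replicate 1.

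Genes of neighbouring cell types and regions were set beside the 7. Over the whole table, 10.7% of genes were above the other 12 mice in 20Hz replicate 2 and 7.77% in 20Hz replicate 1. Of 9 ependymal and motile cilium genes, from the ciliated lining of the ventricles, 6 were above the other 12 mice in 20Hz replicate 2 and 1, Spag16, in replicate 1. They summed to 171 and 543 normalized counts in the pair and 116 to 257 in the rest. Foxj1, the ciliogenesis factor, had 15.4 and 58.3 against 6.36 to 30.3. Of 8 genes of dentate gyrus granule cells, a hippocampal field, 7 were above the rest in replicate 2 and 0 in replicate 1. They summed to 1206 and 3924 against 820 to 2328. C1ql2, a dentate marker, had 354 and 2287 against 159 to 1354. Prox1, the defining factor of granule cells, had 3.54 in replicate 1 and 20.4 in replicate 2, and some of the other mice had 0. So 20Hz replicate 2 was high for ependymal and dentate genes as well as for the 7, and 20Hz replicate 1 was high for the 7 with both of those sums inside the range of the rest. The part of ependymal or hippocampal tissue in the levels of the 7 genes was not tested.

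Most other marker lists lay within the range of the rest by their sums. Over the whole table, 1.43% of genes were above the rest in both mice. The 13 meningeal and fibroblast genes summed to 5801 and 5002 in the pair against 3230 to 9559, and 0 of them were above the rest in both mice. Sums of 7056 and 6412 against 5375 to 8588 were found for 10 vessel genes, 5002 and 5047 against 3100 to 7665 for 4 red blood cell genes, and 221 and 151 against 122 to 323 for 4 border macrophage genes. For 8 oligodendrocyte genes the sums were 21454 and 20959 against 19341 to 28436. In that list Cldn11, the tight junction gene of myelin, was below the rest in both mice, at 4962 and 5203 against 5900 to 7776, as were 96 genes of the table (0.746%). The 5 striatal genes summed to 3208 and 3562 against 2907 to 3608, and 1 of them, Ppp1r1b, was above the rest in both, at 1450 and 1562 against 1022 to 1425. The 6 genes of hippocampal CA fields summed to 3090 in replicate 1, just below the 3116 to 4475 of the rest, and to 4573 in replicate 2, just above. By gene, 3 of these 6 were above the rest in replicate 2, where 10.7% of all genes were, and 1 in replicate 1. Their median fold was 2.33 in replicate 2 and 1.22 in replicate 1, and 2 of the 6 had 0 reads in at least 1 mouse. The 3 thalamic genes summed to 874 and 567 against 578 to 842, outside the range on opposite sides.

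**Figure D3:**
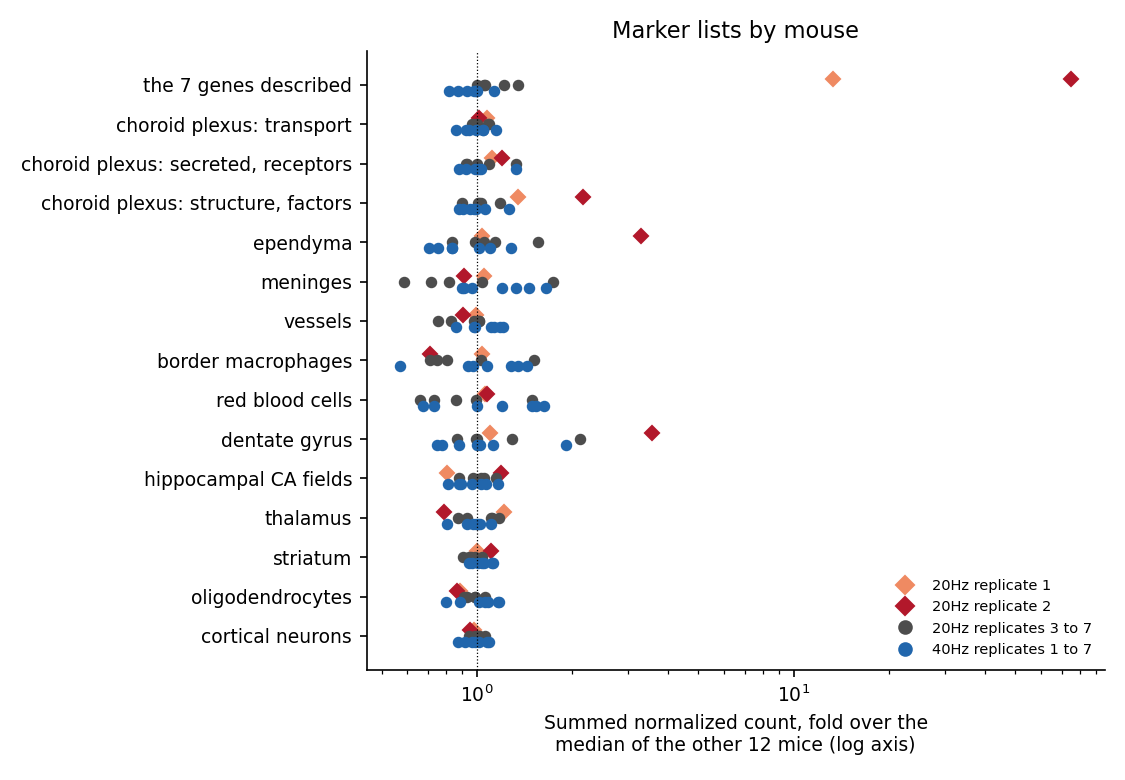
Summed normalized count of the 7 genes and of each marker list in each mouse, as a fold over the median of the other 12 mice (log axis); diamonds are 20Hz replicates 1 and 2, circles the other mice. The 7 genes stand at 13.2-fold and 75.0-fold in the pair, the ependymal genes at 1.04-fold and 3.29-fold and the dentate genes at 1.10-fold and 3.58-fold.

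Relatives and partners of each of the 7 genes were also counted. Over the whole table, 10.7% of genes were above the rest in replicate 2 and 7.77% in replicate 1. The 9 partners of Ttr in thyroid hormone and retinol handling summed to 27650 and 24255 in the pair, inside the 21924 to 28409 of the rest. Of the 9, 1 was above the rest in both mice and 3 in each mouse. None of 5 partners and relatives of Kl in FGF hormone signalling was above the rest in both, and their sums of 209 and 192 lay inside 184 to 256. The 4 other CLIC genes summed to 5725 and 5166 against 5292 to 7508, with 0 above in either mouse. Of 11 relatives and binding partners of Sostdc1, 5 were above the rest in replicate 2 and 0 in replicate 1. Among them Bmp6, a bone morphogenetic protein, had 442 and 1029 against 180 to 764. The 6 other aquaporins summed to 272 and 400 against 285 to 394, under the rest in replicate 1 and over it in replicate 2, with 1 gene, Aqp5 (16.5 against 0 to 16.47), barely above in replicate 1 and 0 in replicate 2. Aqp4, the water channel of astrocyte endfeet, had 21.3 in replicate 1, under the 33.7 to 63.1 of the rest, and 62.0 in replicate 2. The 10 other coagulation genes had 0 above in either mouse, and their sums of 3228 and 3026 lay inside 2669 to 4095. No other CLIC, aquaporin or coagulation gene analysed was therefore above the rest in both mice, where 1.43% of all genes were. At that share lists this short would mostly hold none, and Clic6, Aqp1 and F5 were chosen for being above.

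Among the other 12 mice the 7 genes did not rise and fall together. Over the 21 pairs of genes, Spearman's rho across the 12 mice ran from -0.66 to 0.46, with a median of 0.049. The lowest was that of Kl with Ecrg4 (Pearson r -0.72) and the highest that of Ttr with Clic6. The points share library and depth, and 2 to 10 reads stand behind each F5 value. With the high pair included, Pearson's r ran from 0.79 to 0.97, so the tight relation over 14 mice rests on those 2 mice. The 5 genes with the highest r with the mean of the 7 over the 12 mice were Gm1604b, Pank4, Dnal4, Tprkb and Atg9b (r 0.78 to 0.90). They had r of -0.49 to 0.42 over all 14 mice. They are the top of 10667 genes ranked on 12 points, and whether their r exceeds what such a choice gives was not tested. The highest mouse among the 12 also differed by gene. It was 40Hz replicate 7 for Ttr, 20Hz replicate 7 for Kl, 20Hz replicate 6 for Clic6 and Aqp1, 20Hz replicate 4 for Sostdc1, 40Hz replicate 1 for Ecrg4 and 20Hz replicate 3 for F5. The lowest mouse for Ttr and for Ecrg4, 20Hz replicate 7, was the highest for Kl.

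**Figure D4:**
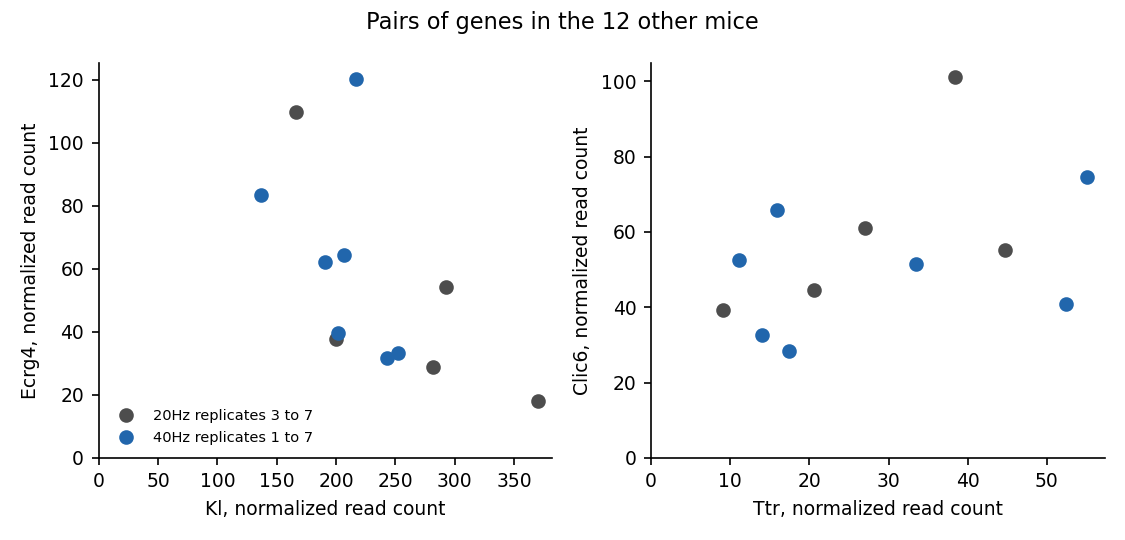
Normalized read counts of Ecrg4 against Kl (left) and of Clic6 against Ttr (right) in the 12 other mice, 1 point per mouse. Ecrg4 is lower where Kl is higher (Spearman's rho -0.66), and Clic6 and Ttr have the highest rho of the 21 pairs, 0.46.

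The high pair shared age and frequency, being 2 of the 3 mice of 5 months at 20Hz. The third of these, 20Hz replicate 3, had 20.6 normalized counts of Ttr, under the median of the 12. Mice with the neighbouring animal numbers 142 and 143, 40Hz replicates 4 and 5, were also 5 months old and had 33.4 and 13.97 of Ttr. Neither was near the high pair, whose numbers are 141 and 144. The labels do not say whether mice with neighbouring numbers have anything else in common.

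Whether the 7 genes differed between 40Hz and 20Hz was tested in the other 12 mice with limma on log2(normalized count + 1). The choice of genes set these 12 mice as a whole below the high pair. It did not use the frequency or age of mice among the 12. F5 was left out by the filter, so 6 genes were tested. At 20Hz the 5 mice, replicates 3 to 7 in that order, had 20.6, 44.7, 27.0, 38.3 and 9.08 of Ttr, while the 7 mice at 40Hz had 11.1 to 55.0 (median 17.4). The range of Ttr at 20Hz lay almost wholly inside that at 40Hz, apart from replicate 7. Kl had 166, 200, 282, 293 and 371 at 20Hz and 137 to 252 (median 207) at 40Hz. Ecrg4 had 110, 37.6, 28.7, 54.3 and 18.2 at 20Hz and 31.6 to 120 (median 62.2) at 40Hz. For Kl 3 mice at 20Hz lay above all 7 at 40Hz, and for Ecrg4 3 mice at 20Hz lay inside the range at 40Hz.

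None of the 6 genes passed limma's test at an adjusted p of 0.05, and 0 of 10667 genes did (0%), the smallest adjusted p being 0.853. At an unadjusted p of 0.05, 606 genes passed (5.68%), and none of the 6 was among them. The count of genes called was 0 with edgeR and 0 with DESeq2 on recovered reads. The difference of 40Hz from 20Hz on this log2 scale was -0.31 ± 0.18 (SE) for Kl, with a 95% interval of -0.69 to 0.08 and limma's adjusted p of 0.854. For Sostdc1 it was -0.39 ± 0.23 and for Aqp1 -0.37 ± 0.24, with the same adjusted p. For Clic6 it was -0.27 ± 0.25, for Ttr -0.04 ± 0.45 and for Ecrg4 0.43 ± 0.43. So 5 differences were below 0 and 1 above, with a median of -0.29, where 48.3% of all genes were above 0. The widest intervals were those of Ttr and Ecrg4, and that of Ecrg4 ran from -0.51 to 1.36. F5, left out of this test by the filter, had 7.34 ± 3.02 (SD, n = 5) at 20Hz and 5.46 ± 2.20 (SD, n = 7) at 40Hz. The genes of smallest p in this test, Tbce, Fkbp5 and Car8, are no choroid plexus markers.

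Age was tested in the same mice, 7 of 4 months and 5 of 5 months, with frequency as a covariate. Again 0 of 6 genes and 0 of 10667 genes (0%) passed limma's test, with 0 by edgeR and 0 by DESeq2, and 750 genes (7.03%) had an unadjusted p under 0.05. The difference of 5 from 4 months in log2 normalized count was -0.17 ± 0.50 (SE) for Ttr, -0.15 ± 0.20 for Kl, -0.31 ± 0.27 for Clic6 and -0.21 ± 0.25 for Sostdc1. It was 0.25 ± 0.26 for Aqp1 and 0.21 ± 0.49 for Ecrg4. No gene of the 3 choroid plexus lists passed either test. The genes of smallest p for age were Nectin1, Sycp1 and Lsm11.

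**Figure D5:**
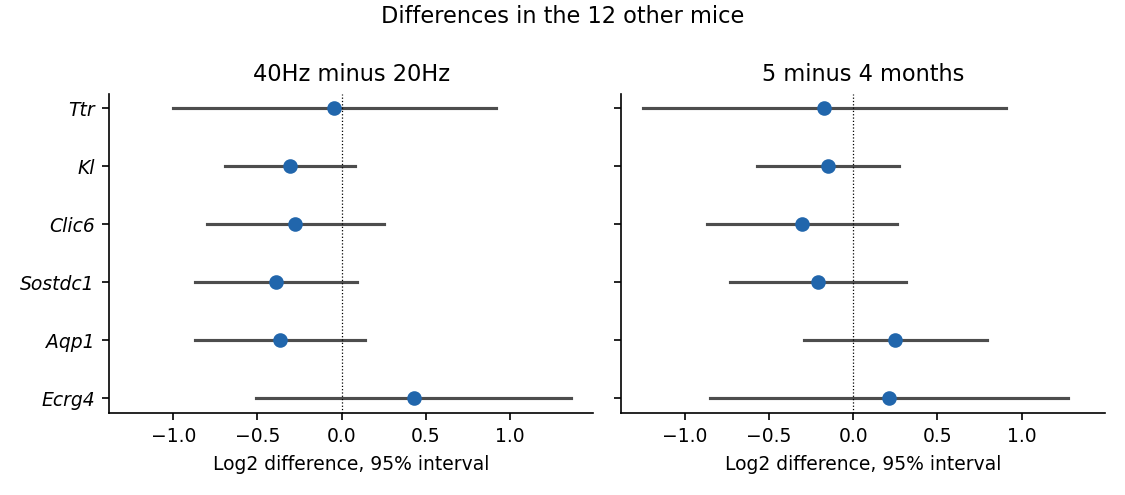
Difference in log2(normalized count + 1) of 6 genes between 40Hz and 20Hz (left) and between 5 and 4 months (right) in the 12 other mice, with 95% intervals as lines. Every interval spans 0.

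With the high pair put back, all 14 mice gave other values for the same genes, printed here as a description. The limma difference of 40Hz from 20Hz became -2.23 ± 1.50 (SE) for Ttr, -1.33 for Kl, -1.77 for Clic6, -1.73 for Sostdc1, -1.72 for Aqp1, -0.77 for Ecrg4 and -1.87 for F5. For Ttr, adding 20Hz replicate 1 alone gave -1.10 and adding replicate 2 alone gave -1.55. By edgeR on the recovered reads of all 14 mice it was -6.37 for Ttr and -2.31 for Ecrg4, and by DESeq2 -6.29 for Ttr. Ttr was 1 of 3 genes that DESeq2 called of 10684 (0.0281%), where limma and edgeR called none of the 7. These fits include the mice whose values chose the genes, so their direction was set by that choice and their calls are no test of frequency. F5 entered them only through the high pair. Since the pair belongs to the 20Hz group, the difference over 14 mice cannot be told apart from that between these 2 mice and the rest.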

How the data were processed

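The authors deposited 1 table of normalized read counts per gene, signal values scaled to each library, for 14 mouse visual cortex samples. The submitters' processing notes name DESeq2 and GRCm39. The aligner, counter and annotation were not given in the sources used here. Low values gave the worth of 1 read in each mouse, and dividing by it gave whole reads within 0.01 for 100% of the deposited signal values. Totals of listed genes ran from 6108717 to 13744933 reads.

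Groups came from the labels. The 7 genes and all gene lists were chosen with earlier results of these data known. Named beside them were the 20 genes most correlated with their mean standardized profile over 14 mice, the 5 most correlated over 12, genes of the lists, and the 3 genes of smallest p per test. Some listed genes are not reported here.

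Frequency and age were tested in the 12 mice with limma 3.58.1 (trend, robust) in R 4.3.3 on log2(value + 1), over 10667 genes with a mean of at least 10, with Benjamini-Hochberg adjustment. The labels give each mouse its own animal number, so mice are the replicates. Alternatives were edgeR 4.0.16 and DESeq2 1.42.0 on recovered reads, other pseudocounts, filters and scalings, each mouse left out, a replicate block and all 14 mice. Adding each high mouse alone, and edgeR and DESeq2 on 14 mice, were chosen after seeing the data. The tests were tried on simulated data. Intervals on reads cover counting error only.

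Transcript lengths came from GENCODE M21 (GRCm38), and gene starts from RefSeq on GRCm38.p6. The coordinates printed are those of GRCm38.p6, and no coordinate on GRCm39 was used.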

Additional observations from a re-analysis of the deposited data

Results flagged for a closer look

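Within the 20Hz group, 20Hz replicate 2 lay far from the nearest other mouse, relative to the range of the group, for each of the 7 genes. Its normalized counts were 13256 for Ttr, 7046 for Kl, 4695 for Clic6, 2160 for Sostdc1, 2627 for Aqp1, 1502 for Ecrg4 and 715 for F5. The nearest mouse was 20Hz replicate 1 in each case, with 2037 for Ttr and 128 for F5. In the 40Hz group no mouse stood apart for any of the 7. Chance marks about 1 in 20 groups, and these 7 marks of 14 tests are 1 mouse seen in 7 genes that were chosen for it.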

How the results depend on the processing

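The median log2 fold of the 7 genes over the other 12 mice was 3.87 in 20Hz replicate 1 and 6.32 in replicate 2, and other scalings, the median of the other 20Hz mice and the mean of the other 12 mice gave 3.75 to 3.87 and 6.16 to 6.38. In the 12 mice, none of the genes tested was called for frequency or age under any alternative run on those mice. Leaving out each mouse gave 0 to 0. These were the 6 genes of the main test, and 7 with F5 where the filter was dropped or lowered to a mean of 1. Over all 14 mice DESeq2 called 1, Ttr, while limma and edgeR called 0; those fits include the mice that chose the genes. For frequency, Ecrg4 changed sign to -0.77 with all 14 mice (also with the replicate block), -0.11 with 20Hz replicate 1 added, -0.43 with replicate 2 added, -2.31 with edgeR and -2.31 with DESeq2 on 14 mice. Ttr became 0.020 with age as a covariate and ran from -0.38 to 0.17 with each mouse left out. For age, all 14 mice gave 2.43 for Ttr, 1.08 for Kl, 1.52 for Clic6 and 1.41 for Sostdc1. Without each mouse in turn, the age difference ran from -0.43 to 0.17 for Ttr, -0.35 to 0.13 for Kl and -0.50 to 0.59 for Ecrg4. With the replicate number as a block the age difference was 0.39 for Kl and -0.063 for Ecrg4, and 0 genes were called. The numbers do not pair the mice: the deviations of the 7 same-numbered pairs correlated at -0.13 to 0.080, and 2 of 7 matched their own number best. Apart from the fits that add a high mouse, the causes of these changes of sign were not tested. F5 fell below the main filter in the 12 mice. With the filter lowered to a mean of 1 its difference was -0.37 for frequency (limma's adjusted p 0.892) and 0.65 for age (limma's adjusted p 0.761). Those F5 values rest on 2 to 10 reads per mouse. The variance of Ttr between the 12 mice was 8.49 times what counting error gives.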
